A study of Mus musculus with 12 samples.

Results

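The genes described here act in alcohol and retinol metabolism and were followed across mouse liver, freshly isolated hepatocytes and cultured hepatocytes. They are the alcohol dehydrogenases Adh1 and Adh4, the retinol dehydrogenases Rdh16 and Rdh7, the aldehyde dehydrogenases Aldh1a1, Aldh2, Aldh1b1 and Aldh3a2, and the retinol carrier Rbp4. They were chosen by symbol, with earlier results of these data known, and all 9 are among the 32285 genes of the single-nucleus RNA matrices. Each of 8 mice gave 3 samples, 24 in all. Liver (L) was a piece of the median lobe, frozen after the blood had been washed out. Cell Suspension (CS) was the hepatocytes directly after collagenase digestion. Primary Hepatocytes (PH) were the same isolates after 24 hours on collagen, in medium with low serum, dexamethasone and insulin. All animals were wild-type males without treatment, 10 to 12 weeks old and fed chow. The labels give the strain as C57BL6J and the methods as C57BL/6NTac. Every sample went through nucleus extraction, and the dish is a single plating condition with a single time point, so the time course of any change in culture was not measured.

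Alcohol dehydrogenases oxidize ethanol and other alcohols, retinol among them, to aldehydes in the cytosol. Aldehyde dehydrogenases then turn aldehydes into acids, and Aldh2 does so for acetaldehyde in mitochondria. Retinol dehydrogenases of the short-chain family, which sit in the endoplasmic reticulum, interconvert retinol and retinal, and Aldh1a enzymes oxidize retinal to retinoic acid, the ligand of the nuclear retinoic acid receptors. Hepatocytes take up retinoids from the diet, release retinol to blood bound to Rbp4, and pass it to stellate cells, which store it as retinyl esters. Several of these enzymes are known to be unevenly spread along the liver lobule, between the periportal side, where blood enters, and the pericentral side, where it leaves.

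On GRCm38 (GENCODE annotation), Adh1 lies on chromosome 3 at chr3:138260991-138290698 and Adh4 at chr3:138415466-138430892, both on the plus strand in a cluster with Adh7, Adh6a, Adh6b and Adh5. Rdh16 (chr10:127801152-127846565, plus strand) and Rdh7 (chr10:127884028-127888817, minus strand) lie in a cluster of related genes with Rdh1, Rdh9, Rdh19 and Rdh16f2. The coding sequences of these relatives are alike, so reads may be split between them, and the values of Rdh16 and Rdh7 are uncertain to that extent. The aldehyde dehydrogenases are spread over the genome, with Aldh1a1 at chr19:20492715-20643465, Aldh2 at chr5:121566027-121593824, Aldh1b1 at chr4:45799022-45804604 and Aldh3a2 at chr11:61223417-61267464. Rbp4 is at chr19:38116629-38125281. Annotated genes overlap Adh1 (Gm16559), Aldh2 (Gm42879) and Aldh1a1 (C730002L08Rik and Gm6684) on the opposite strand and Rdh16 (Rdh18-ps) on the same strand. Whether strand was used in counting is not given in the sources used here, so reads of such partners cannot be told apart.

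The 250 bases before the transcription start are printed for 4 members, so that Rdh16 and Rdh7, neighbours that both fell in culture, can be read beside Aldh1a1 and Rbp4, the 2 genes whose cultured level in hepatocyte nuclei was called above that in endothelial nuclei. Sequences come from RefSeq on GRCm38.p6, which had a window for 8 of the 9 members. For Aldh2 it had none. Rdh7, Aldh1a1 and Rbp4 have windows at 2 starts, of which 1 is printed for each. Each reads 5′ to 3′ on the strand of its gene: Rdh16 from chr10:127800903-127801152 (plus), Rdh7 from chr10:127889248-127889497 (minus), Aldh1a1 from chr19:20601718-20601967 (plus) and Rbp4 from chr19:38125322-38125571 (minus). Capitals mark matches to 5 short motifs searched on both strands. These were TATAAA, as in TATA boxes, the CCAAT motif, which reads ATTGG on the other strand, and 3 further ones of the C/EBP type (TTGCNNAA), the HNF1 type (GTTAATNAT) and the HNF4 type (CAAAGTCCA).
Rdh16: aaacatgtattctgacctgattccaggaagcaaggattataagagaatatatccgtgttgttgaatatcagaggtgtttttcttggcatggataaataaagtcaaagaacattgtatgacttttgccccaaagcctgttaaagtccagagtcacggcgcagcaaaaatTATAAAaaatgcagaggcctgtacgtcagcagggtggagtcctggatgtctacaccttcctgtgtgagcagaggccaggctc
Rdh7: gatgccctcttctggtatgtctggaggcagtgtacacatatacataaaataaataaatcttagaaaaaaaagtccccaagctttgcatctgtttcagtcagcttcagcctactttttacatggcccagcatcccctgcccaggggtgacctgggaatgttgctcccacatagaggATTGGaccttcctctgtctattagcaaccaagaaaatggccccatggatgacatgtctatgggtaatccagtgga
Aldh1a1: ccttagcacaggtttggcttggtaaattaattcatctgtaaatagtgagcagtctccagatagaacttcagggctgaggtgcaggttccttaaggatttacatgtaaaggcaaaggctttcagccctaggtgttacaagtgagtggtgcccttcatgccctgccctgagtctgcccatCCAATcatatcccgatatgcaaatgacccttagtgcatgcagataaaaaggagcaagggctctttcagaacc
Rbp4: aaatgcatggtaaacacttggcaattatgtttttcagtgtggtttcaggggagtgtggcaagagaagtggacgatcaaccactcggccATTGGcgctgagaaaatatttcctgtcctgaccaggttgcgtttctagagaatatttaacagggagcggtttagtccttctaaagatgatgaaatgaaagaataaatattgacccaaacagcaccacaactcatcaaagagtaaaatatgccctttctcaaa

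In Rdh16 the match is TATAAA, starting 82 bases before the annotated start. In the other 3 windows it is a CCAAT motif, starting 75 (Rdh7), 72 (Aldh1a1) and 162 bases (Rbp4) before the start. Among 32851 RefSeq windows, searched only before the start, 12.4% held TATAAA, 33.8% CCAAT, 9.56% TTGCNNAA, 0.737% GTTAATNAT and 0.384% CAAAGTCCA. The second window of Rbp4, not printed because 124 of its bases lie in annotated exons, holds TATAAA 28 bases and a TTGCNNAA match 128 bases before its start, and that of Aldh1a1 holds a TTGCNNAA match. That of Rdh7, at chr10:127888734-127888983, overlaps the gene span given above and holds no match, while its printed window lies outside that span. The matches are letters in a window and were not tested as binding sites.

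The nuclei read as hepatocytes numbered 15166 for Liver, 13339 for Cell Suspension and 16283 for Primary Hepatocytes, of 53467 nuclei in all. In the deposited table of nuclei, 18118 nuclei of Primary Hepatocytes, 780 of Cell Suspension and 172 of Liver bear the name Cultured Cells. Clusters of these were read here as endothelial or stellate by marker genes. The remaining clusters were read as hepatocytes without a requirement on hepatocyte markers. All other nuclei kept the name in the table. UMIs, which count each captured RNA molecule once, were summed per sample over spliced, unspliced and ambiguous RNA. The sums over hepatocyte nuclei ranged from 6872031 to 29023569 in Liver, from 2104087 to 17452582 in Cell Suspension and from 9852007 to 21226254 in Primary Hepatocytes. In these nuclei the 10 hepatocyte markers summed to a median of 13984 CPM (UMIs of the genes relative to all UMIs of these nuclei) in Liver, against 18053 in Cell Suspension and 4595 in cultured Primary Hepatocytes, and all 10 were above 1 CPM in each sample type. The 11 endothelial markers summed to 47.6, 69.0 and 136 CPM, and the 10 stellate markers to 48.2, 52.8 and 199 CPM, so both lists were highest in the cultured nuclei. All 11 endothelial markers reached a mean of 1 CPM in each sample type, but only 4 of the 10 stellate markers did. The cultured stellate sums ran from 98.3 to 658 CPM. Sums of the 8 leukocyte markers (15.2, 14.4 and 27.998 CPM) and the 8 biliary markers (165, 142 and 200 CPM) were also highest in the cultured nuclei. The 8 Kupffer markers summed to 11.9, 15.5 and 14.4 CPM. Of the biliary markers 4, 4 and 5 reached 1 CPM in Liver, Cell Suspension and Primary Hepatocytes, and of the leukocyte markers 5 in each. Among clusters of cultured nuclei, hepatocyte markers summed to 3583 CPM in cluster 14, read as hepatocytes, and to 3534 CPM in cluster 12, read as endothelial. Mitochondrial UMIs made up a median of 0.172% of the total for Liver, 0.196% for Cell Suspension and 0.374% for Primary Hepatocytes. These sums and shares moved with the sample type beside every comparison given here, and their part in the results was not tested. Of 53467 nuclei, 337 barcodes occurred in more than 1 of the 6 pools of 4 samples, which were kept apart by pool. Only pools 2 and 5 held both Liver and Primary Hepatocytes, and values within pools are given beside that comparison.

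All 9 genes had fallen in hepatocyte nuclei of Primary Hepatocytes compared with Liver, among them Aldh1a1 by 2.97-fold and Rbp4 by 3.40-fold, and for each gene the 8 cultured samples lay below all 8 Liver samples. Of 26778 genes tested, 26.3% were called lower in this comparison and 16.2% had every Primary Hepatocytes sample below every Liver sample. Lower here is a difference per UMI of hepatocyte nuclei, normalized by TMM factors, and in such sums fewer cells with the RNA and less RNA per cell cannot be told apart. From here on, CPM are scaled by these factors unless said otherwise, in contrast to the marker sums above.

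Of the alcohol dehydrogenases, Adh1, the class I enzyme that handles most ethanol in liver, stood at 160, 224 and 412 CPM (lowest, median and highest of 8) in Liver. In Primary Hepatocytes it stood at 11.1, 15.97 and 28.6 CPM, so that the highest cultured sample was well under the lowest Liver sample. The log2 fold change was -3.79 ± 0.26 (SE, edgeR adjusted p = 1.31e-13). Here and below, the SE of a log2 value is derived from the test statistic and is not the spread between mice. Adh4, the class II enzyme, had 66.8, 131 and 213 CPM in Liver and 3.66, 5.45 and 6.91 CPM in Primary Hepatocytes. Its change was -4.69 ± 0.27 (edgeR adjusted p = 1.55e-15).

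Both retinol dehydrogenases fell. Rdh16, a microsomal retinol dehydrogenase, was measured at 93.2, 124 and 199 CPM in Liver, against 2.32, 2.74 and 3.90 CPM in Primary Hepatocytes. All 8 cultured samples together held 435 UMIs of it, whereas the Liver samples held 17713. Rdh16 thus fell by 5.55 ± 0.21 on the log2 scale (edgeR adjusted p = 1.25e-19). For Rdh7, its close relative, the Liver samples had 166, 285 and 315 CPM and the Primary Hepatocytes 5.88, 10.9 and 15.8 CPM, and the groups were far apart. Rdh7 fell by 4.53 ± 0.19 (edgeR adjusted p = 9.88e-19). The cultured levels of Adh1, Adh4, Rdh16 and Rdh7 were no higher than those in endothelial nuclei of the same samples, as given further on, so the sizes of these 4 changes depend on that level and their order is not read.

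The 4 aldehyde dehydrogenases had also fallen. The cultured levels of Aldh2, Aldh3a2 and Aldh1b1 were not called above those in endothelial nuclei, so the sizes of their changes depend on that level too. Aldh2, the mitochondrial enzyme for acetaldehyde, went from 230, 301 and 379 CPM in Liver to 36.9, 49.8 and 61.2 CPM in Primary Hepatocytes (-2.65 ± 0.15, edgeR adjusted p = 1.04e-15). Aldh3a2, which oxidizes fatty aldehydes, had 60.0, 122 and 138 CPM in Liver and 12.03, 18.1 and 27.9 CPM in Primary Hepatocytes (-2.59 ± 0.21, edgeR adjusted p = 6.31e-12). The mitochondrial Aldh1b1 was scarce throughout, with 1.19, 1.95 and 3.91 CPM in Liver and 0.169, 0.323 and 0.351 CPM in Primary Hepatocytes. Its change of -2.79 ± 0.29 (edgeR adjusted p = 1.15e-09) rests on 255 and 46 UMIs. Aldh1a1, a cytosolic retinal dehydrogenase, had 163, 279 and 371 CPM in Liver and 49.2, 99.8 and 129 CPM in Primary Hepatocytes (-1.57 ± 0.19, edgeR adjusted p = 2.14e-08). With spliced UMIs alone its change was -2.23, against -1.42 for Rbp4, so the order of these 2 depends on the splicing state counted. The gap between the groups was narrow for Aldh1a1 and wide for the other 3.

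Rbp4, the plasma carrier of retinol, had the least spread between samples, 529, 668 and 704 CPM in Liver and 159, 179 and 224 CPM in Primary Hepatocytes. The coefficient of variation was 10.0% in Liver and 11.8% in Primary Hepatocytes, compared with 37.2% and 35.4% for Adh1. Rbp4 was 3.40-fold lower in culture (-1.77 ± 0.11, edgeR adjusted p = 1.04e-14).

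**Figure D1:**
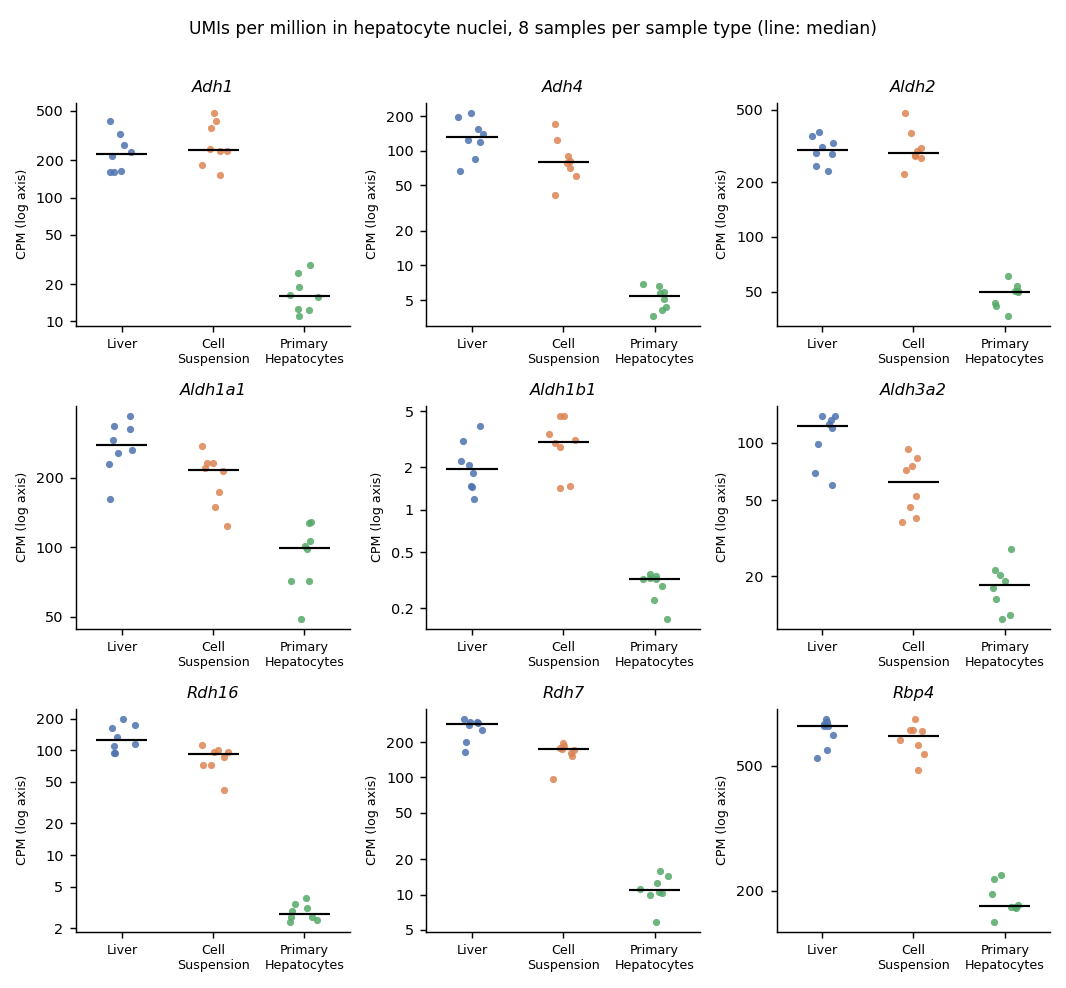
Level of each of the 9 genes in hepatocyte nuclei of every sample, as TMM-normalized CPM on a log axis, with 1 panel per gene and a line at the median of the 8 samples of each sample type. The Primary Hepatocytes lie below all Liver samples in all 9 panels, and Cell Suspension samples overlap with Liver samples in all 9.

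The same fall was seen against the cells that went into culture. All 9 genes were called lower in Primary Hepatocytes than in Cell Suspension, beside 23.5% of the genes tested, among them Aldh1a1 by 2.14-fold (-1.10 ± 0.19, edgeR adjusted p = 9.1e-06). For 8 of the 9 genes every cultured sample was below every Cell Suspension sample, which held for 12.2% of the genes tested. Aldh1a1 was the exception, with 123, 217 and 274 CPM in Cell Suspension, and its lowest sample fell within the cultured range. The cultured value was nevertheless below that of the Cell Suspension of the same mouse in 8 of 8 mice for each of the 9 genes. For all but Aldh1a1 this follows from the lack of overlap and adds nothing to it. Over many genes, Primary Hepatocytes and Cell Suspension of the same mouse were no more alike than those of different mice (median correlations 0.00861 and 0.00888). The comparisons with Liver and with Cell Suspension share the Primary Hepatocytes samples and are no independent support for each other.

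Normalization had a bearing on the sizes. With TMM factors the median log2 change of all genes was 0.10 between Liver and Primary Hepatocytes, and 51.0% of the called genes were higher in culture. With library totals alone the median was 0.66 and 75.7% of the calls were higher. Between Cell Suspension and Primary Hepatocytes the median moved from 0.02 to 0.71 and the share of calls that were higher from 53.4% to 80.2%. Between Liver and Cell Suspension the median moved from 0.02 to -0.11 and that share from 36.5% to 19.9%, while RLE size factors gave 47.8% and DESeq2 49.3%. All 9 genes were called lower than in Liver under both scalings, with Aldh1a1 at -1.03, Rbp4 at -1.20 and Rdh16 at -4.98 from library totals. Against Cell Suspension, Aldh1a1 changed by -0.42 from library totals and no longer passed the test (edgeR adjusted p = 0.0579), while the other 8 did.

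Within the 2 pools that held both sample types, each of the 9 genes had its lower mean in Primary Hepatocytes. That direction follows from the lack of overlap between the samples of these sample types, so only the sizes add to it. The log2 ratios were -5.18 and -4.97 for Rdh16, -4.83 and -4.62 for Rdh7, -4.33 and -4.09 for Adh1 and -1.93 and -1.44 for Rbp4. They were furthest apart for Aldh1a1, at -2.37 and -0.64. Of the 4 pools that held both Cell Suspension and Primary Hepatocytes, all 4 gave a lower cultured value for each of the 9 genes. For all but Aldh1a1 this too follows from the lack of overlap.

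Isolation without culture went along with smaller differences. Between Liver and Cell Suspension, 4 of the 9 genes were called lower in Cell Suspension, beside 14.2% of the genes tested, and the ranges of the sample types overlapped for all 9, whereas 4.38% of the genes tested had every Cell Suspension sample below every Liver sample. Rdh7 had 96.6, 173 and 197 CPM in Cell Suspension (-0.68 ± 0.16, edgeR adjusted p = 0.00233). Rdh16 had 41.9, 91.5 and 111 CPM (-0.67 ± 0.17, edgeR adjusted p = 0.00368). Aldh3a2 had 38.4, 62.1 and 93.0 CPM (-0.81 ± 0.20, edgeR adjusted p = 0.00332). For these 3 genes the Cell Suspension value was below the Liver value of the same mouse in 8 of 8 mice. Within the 4 pools that held both sample types, Rdh7 (-1.31 to -0.62), Rdh16 (-0.80 to -0.44) and Adh4 (-1.33 to -0.54) had the lower mean in Cell Suspension in all 4, and Aldh3a2 in 3 of 4 (log2 ratios -1.60 to 0.46). Adh4, with 40.7, 79.1 and 170 CPM, was also lower in 8 of 8 mice, but it only just passed (-0.62 ± 0.23, edgeR adjusted p = 0.0495) and lost the call under 17 of 23 alternatives, the choice of tool, filter and most left-out mice among them. With the mouse as a replicate block, the change of Adh4 was -0.65 (edgeR adjusted p = 0.0112).

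The other 5 genes did not pass. Adh1 had 151, 243 and 481 CPM in Cell Suspension, a change of 0.26 with a 95% interval of -0.20 to 0.72, and was lower in 2 of 8 mice. Aldh2 had 220, 288 and 479 CPM and a change of 0.05 (95% interval -0.23 to 0.32), and Rbp4 had 484, 623 and 703 CPM and a change of -0.08 (95% interval -0.29 to 0.13). Aldh1b1 had 1.44, 3.04 and 4.62 CPM and a change of 0.49 (95% interval -0.00 to 0.99). Aldh1a1 changed by -0.47 ± 0.19 (edgeR adjusted p = 0.0715) without the block, and was called lower with the mouse as a replicate block (-0.47, edgeR adjusted p = 0.0311) and from library totals without TMM (-0.62, edgeR adjusted p = 0.0143). Summing the related genes Rdh1, Rdh7, Rdh9, Rdh16, Rdh16f2 and Rdh19 to 1 value removed the call of that family (-0.42, edgeR adjusted p = 0.063). With spliced UMIs alone, Rdh16 (-0.33), Aldh3a2 (-0.04) and Adh4 (0.04) no longer passed, and Adh1 was called higher in Cell Suspension (0.65, edgeR adjusted p = 0.0169).

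**Figure D2:**
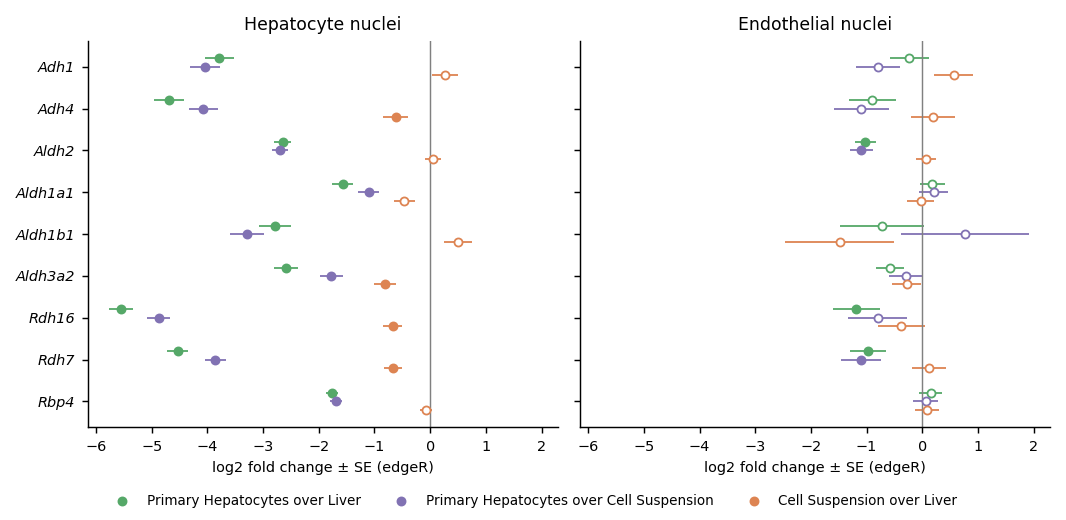
Log2 fold changes with their SE for the 9 genes in hepatocyte nuclei (left) and endothelial nuclei (right), for the 3 pairs of sample types, with filled points where the edgeR adjusted p was under 0.05. In hepatocyte nuclei all points against Primary Hepatocytes lie at or below -1.10, and in endothelial nuclei all 27 points lie between -1.48 and 0.76.

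The hepatocyte levels were compared with those in nuclei of other types of the same samples, which may hold free RNA, RNA of their own, or both. In Liver, 8 of the 9 genes were higher in hepatocyte than in endothelial nuclei (29.5% of genes tested), with log2 differences from 1.79 for Aldh2 to 3.65 for Adh4. Aldh1b1 was not called (0.73 ± 0.43, edgeR adjusted p = 0.172). The same 8 were higher in hepatocyte than in Kupffer nuclei (24.1% of genes tested). Against stellate nuclei 7 were higher (26.6% of genes tested). In Cell Suspension 9 of 9 were higher in hepatocyte than in endothelial nuclei (23.6% of genes tested). In Primary Hepatocytes only Aldh1a1 (1.28 ± 0.15, edgeR adjusted p = 2.21e-13) and Rbp4 (0.93 ± 0.13, edgeR adjusted p = 8.17e-11) were higher in hepatocyte nuclei, where 22.0% of the genes tested were.

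The other 7 did not pass this test. The unadjusted 95% interval left out 0 for Aldh2, which was higher in hepatocyte nuclei (edgeR adjusted p = 0.0525), and for Rdh16, which was lower (edgeR adjusted p = 0.114). The log2 differences were -0.34 (95% interval -0.74 to 0.07) for Adh1, -0.09 (-0.77 to 0.59) for Adh4, -0.33 (-0.80 to 0.13) for Rdh7, -0.79 (-1.56 to -0.02) for Rdh16, 0.15 (-0.28 to 0.58) for Aldh3a2 and 0.39 (0.07 to 0.71) for Aldh2. Aldh1b1, with 3 UMIs in all cultured endothelial nuclei, had -1.15 (-2.91 to 0.60). As a share of the hepatocyte level of the same sample, the endothelial level of Adh1 had a median of 20.1% in Liver and 103% in Primary Hepatocytes. That of Rdh7 went from 17.7% to 149%, that of Adh4 from 9.22% to 115%, that of Rdh16 from 12.2% to 227% and that of Rbp4 from 22.02% to 55.5%. The sum of the 10 hepatocyte markers moved in the same way, from 21.7% to 60.8%, as did Alb among them, from 31.1% to 77.8%. For Aldh3a2 and Aldh2 the cultured medians were 84.7% and 86.0%. Taking endothelial nuclei as the measure of background, the cultured values of Adh1, Adh4, Rdh16 and Rdh7 stood at or below it and are not read as expression by hepatocytes, here or in the comparisons of zones, clusters and splicing that follow. Those of Aldh3a2, Aldh2 and Aldh1b1 were not called above it. In Primary Hepatocytes the endothelial nuclei were shallower, with a median depth of 1499 UMIs against 5915.5 in hepatocyte nuclei, and this background is not corrected for depth. The part of free RNA or of depth in any of these values was not tested.

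**Figure D3:**
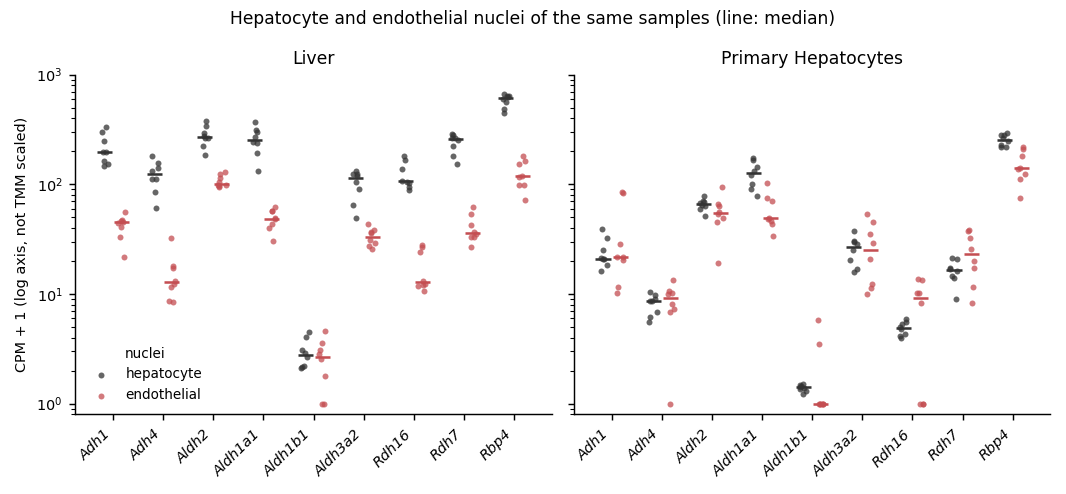
Level of the 9 genes in hepatocyte nuclei (grey) and endothelial nuclei (red) of the same samples, as CPM + 1 without TMM factors on a log axis, for Liver (left) and Primary Hepatocytes (right), with a line at the median of 8 samples. In Liver the hepatocyte values lie above the endothelial ones for every gene but Aldh1b1, while in Primary Hepatocytes the medians of Adh1 are alike and those of Rdh16 and Rdh7 are higher in endothelial nuclei.

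The same tests were made within endothelial nuclei, without a test of the difference between cell types. Between Liver and Primary Hepatocytes 3 were called lower, beside 18.4% of the 18279 genes tested: Aldh2 (-1.02 ± 0.19, edgeR adjusted p = 2.67e-05), Rdh7 (-0.98 ± 0.32, edgeR adjusted p = 0.0147) and Rdh16 (-1.18 ± 0.43, edgeR adjusted p = 0.0274). Aldh2 had 94.8, 108 and 128 CPM in endothelial nuclei of Liver and 15.2, 49.9 and 86.3 CPM in those of Primary Hepatocytes, with no overlap. The calls of Rdh7 and Rdh16 were lost with RLE size factors and with DESeq2, that of Rdh7 also with the filter of edgeR and that of Rdh16 also without mouse 2, 6 or 7. Aldh3a2 did not pass here, but did so under 1 of 12 alternatives. Against Cell Suspension, Aldh2 (-1.10 ± 0.20, edgeR adjusted p = 5.5e-05) and Rdh7 (-1.10 ± 0.36, edgeR adjusted p = 0.0258) were lower, beside 10.7% of genes tested. Rdh7 lost this call when mouse 4, 5, 6 or 8 was left out, which left 1 gene called. With the mouse as a replicate block Adh1 was called as well (-0.92, edgeR adjusted p = 0.045), as it was without mouse 3, and Adh4 was called without mouse 1. The share of all endothelial calls that were higher in Primary Hepatocytes than in Liver was 45.6% with TMM and 57.0% with RLE factors or DESeq2. Between Liver and Cell Suspension edgeR called 0 of the 9 (1.87% of genes tested were lower), none had an unadjusted p under 0.05, and DESeq2 called 0. Of those calls 52.1% were higher with TMM, 69.0% with RLE factors, 71.0% with DESeq2 and 69.6% with the filter of edgeR. Rbp4 differed by 0.15 (95% interval -0.26 to 0.55) and Aldh1a1 by 0.17 (-0.26 to 0.61) between Liver and Primary Hepatocytes in endothelial nuclei.

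Aldh1a1 stood apart from the other members in where it was found. In Liver its level was 423 ± 84.7 CPM (SD, n = 8, without TMM factors) in stellate nuclei and 256 ± 74.0 CPM in hepatocyte nuclei. Among the cell types and sample types compared, stellate nuclei of Liver and of Cell Suspension (414 ± 109 CPM, n = 7) had the highest means, and these 2 did not differ beyond their spread. In the test within Liver, hepatocyte nuclei were lower than stellate nuclei (-0.35 ± 0.14, edgeR adjusted p = 0.034). With RLE factors 47.7% of all genes called in this test were higher in hepatocyte nuclei, against 62.7% with TMM. The call of Aldh1a1 was lost without mouse 5 (-0.27, edgeR adjusted p = 0.121) and without the replicate block (-0.31, edgeR adjusted p = 0.136). In Primary Hepatocytes the order was the opposite, with 125 ± 34.9 CPM in hepatocyte nuclei and 98.6 ± 65.1 CPM in stellate nuclei, and hepatocyte nuclei were higher (0.92 ± 0.27, edgeR adjusted p = 0.00499, beside 12.3% of the genes tested). Rbp4 was the other gene called higher in that test (1.22 ± 0.22, edgeR adjusted p = 1.14e-06). It rests on 192 stellate nuclei of Primary Hepatocytes, where Liver had 880. Of these, 175 came from cluster 27, with a median of 1984 UMIs. That cluster held hepatocyte markers at 2529 CPM and endothelial markers at 874 CPM beside stellate markers at 3325 CPM. The part of this mixture in the order was not tested. For the remaining genes the mean was highest in hepatocyte nuclei of Liver or Cell Suspension, apart from Aldh1b1, whose mean was below 5 CPM in every type.

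The cultured hepatocyte nuclei were themselves uneven in Aldh1a1. The authors' clusters 0 and 1 held 5961 and 5846 nuclei of Primary Hepatocytes. In cluster 0 the lowest, median and highest of the 8 samples were 152, 223 and 283 CPM. Levels in this paragraph are without TMM factors and cannot be set beside the scaled ones given earlier. In cluster 1 they were 18.4, 28.1 and 46.4 CPM, so every sample had more Aldh1a1 in cluster 0. Marker sums of other cell types differed between these clusters as well: the biliary list had 311 CPM in cluster 0 and 91.0 in cluster 1, and the stellate list 142 and 387. Aldh1a1 itself was found in biliary nuclei of Liver (146 ± 82.2 CPM, SD, n = 8). The part of these cell types in the difference was not tested. The other 3 clusters read as hepatocytes had means of 74.0, 78.1 and 52.3 CPM. Because the clusters were made from the expression of all genes, this is a description without a test. The other genes differed less between clusters 0 and 1: Aldh3a2 had means of 32.5 and 15.9 CPM, Rbp4 291 and 233, Rdh7 17.4 and 11.7, Aldh2 68.5 and 57.3, Adh1 20.9 and 18.2 and Rdh16 2.64 and 2.72. Cluster 8 held 1450 nuclei of Primary Hepatocytes beside 705 of Cell Suspension and 166 of Liver. Its nuclei of Primary Hepatocytes, with a median of 2565 UMIs against 7372 in cluster 0, had the highest mean of Rdh16 (10.7 CPM), Rdh7 (26.8 CPM) and Aldh2 (104 CPM) of the 5, and also the highest sum of hepatocyte markers, 7885 CPM against 4596 in cluster 0. Without that cluster, in all sample types, all 9 genes were still called lower in Primary Hepatocytes than in Liver.

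**Figure D4:**
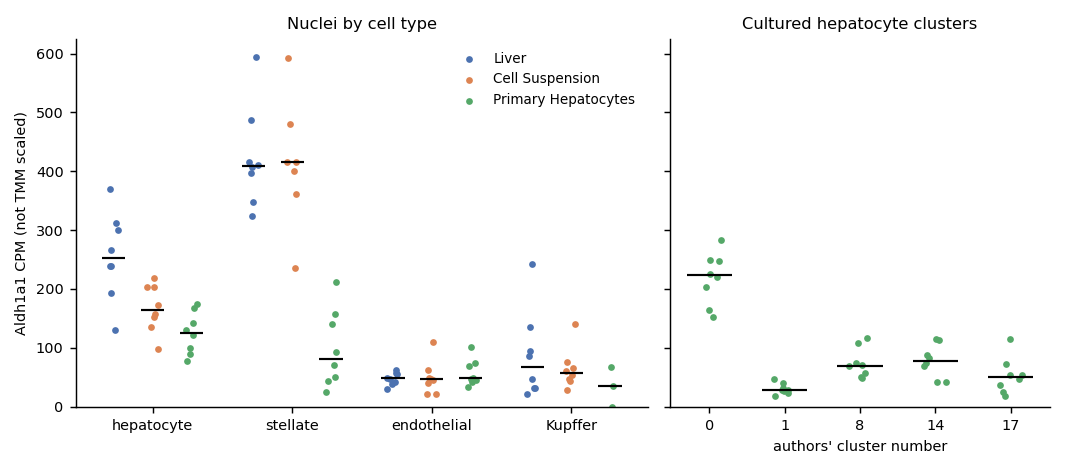
Aldh1a1 as CPM without TMM factors in each sample, by cell type and sample type (left) and in the authors' 5 clusters of cultured nuclei read as hepatocytes (right), with a line at the median. Stellate nuclei of Liver and Cell Suspension are highest, stellate nuclei of Primary Hepatocytes are lower, and cluster 0 lies above cluster 1 in all 8 samples.

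Position along the lobule was read from hepatocyte nuclei of each sample, ranked by the UMIs of 10 pericentral and 10 periportal genes, of which no member is 1, and the outer tertiles were compared. In Liver all 9 genes differed between the tertiles (16.1% of the 24711 genes tested did). Aldh3a2 was the most uneven, with 245 ± 71.98 CPM in pericentral and 6.57 ± 3.35 CPM in periportal nuclei (SD, n = 8), a log2 difference of 5.18 ± 0.11 (edgeR adjusted p = 1.14e-89). Over the 8 samples its log2 ratios of CPM + 1 ran from 4.28 to 6.17. Rdh16 (2.16 ± 0.08, edgeR adjusted p = 9.16e-57) and Aldh1a1 (2.09 ± 0.09, edgeR adjusted p = 1.2e-52) were also pericentral, at 224 against 50.1 CPM and 478 against 113 CPM. Aldh2 (0.86 ± 0.06), Adh1 (0.52 ± 0.07), Adh4 (0.45 ± 0.07), Rbp4 (0.26 ± 0.07) and Rdh7 (0.20 ± 0.06) were pericentral to a lesser degree, in 8 of 8 samples each. The call of Rdh7 was lost without mouse 1 or mouse 4, and when the most abundant gene was left out of each zone list (0.13, edgeR adjusted p = 0.218). Aldh1b1 was the only one of the 9 that was higher in periportal nuclei (-4.33 ± 0.34, edgeR adjusted p = 7.53e-24), with 5.12 ± 2.36 CPM against 0.235 ± 0.116 CPM, and it was so in 8 of 8 samples. Rdh16 and Rdh7, neighbours on chromosome 10, thus had log2 differences of 2.16 and 0.20.

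The pattern was similar in Cell Suspension. There 7 of the genes differed between the tertiles, as did 15.5% of the genes tested, with Aldh3a2 at 4.80 ± 0.14, Rdh16 at 1.99 ± 0.10, Aldh1a1 at 1.92 ± 0.09 and Aldh1b1 at -2.97 ± 0.39. Rdh7 (-0.06 ± 0.07) and Rbp4 (0.17 ± 0.07) did not pass. Rbp4 did so under 3 of 12 alternatives, and Adh1 lost its call without mouse 1 or mouse 7. For none of the 9 did the difference itself change between Liver and Cell Suspension by edgeR's test (1.51% of genes tested), with 3 at an unadjusted p under 0.05. That test did not use the mouse shared by Liver and Cell Suspension samples. Rdh7 alone had a lower log2 ratio in Cell Suspension than in Liver in every mouse (medians -0.0654 and 0.188), which was not tested in pairs.

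In Primary Hepatocytes 3 genes differed, beside 1.97% of the genes tested: Rdh16 (1.13 ± 0.28, edgeR adjusted p = 0.00971), Aldh3a2 (0.93 ± 0.14, edgeR adjusted p = 1.58e-07) and Aldh1a1 (0.55 ± 0.10, edgeR adjusted p = 1.78e-05). For Aldh1a1 the log2 ratios of CPM + 1 ran from -0.13 to 1.38 over the 8 samples, with a median of 0.47. It was higher in pericentral nuclei in 7 of 8. The part of its unevenness between cultured clusters, given above, was not tested. Aldh3a2 had 18.0, 25.2 and 35.0 CPM (lowest, median and highest of 8) in pericentral and 7.32, 12.8 and 22.8 CPM in periportal nuclei, where Liver had 126, 265 and 333 CPM and 2.94, 5.60 and 11.1 CPM. The pericentral ranges of both sample types were apart and the periportal ones overlapped. Rdh16 was higher in pericentral nuclei in 6 of 8 samples, and its call was lost under 4 of 12 alternatives. These were leaving out mouse 1 (1.00) or mouse 2 (0.72), all ranked nuclei split at the median (0.53, edgeR adjusted p = 0.594), and zone lists without their most abundant gene (0.96, edgeR adjusted p = 0.0864). As its cultured level was at or below that of endothelial nuclei, and that of Aldh3a2 was not called above it, these contrasts are not read as zonation of their expression. The test of the change against Liver was passed by 6 genes (7.93% of genes tested): Aldh3a2 (-4.25 ± 0.19), Aldh1a1 (-1.54 ± 0.13), Rdh16 (-1.04 ± 0.32), Aldh2 (-0.84 ± 0.11), Adh1 (-0.43 ± 0.14) and Rbp4 (-0.43 ± 0.10). Rbp4 ran the other way in culture, with a log2 difference of -0.17 ± 0.07 that was not called (edgeR adjusted p = 0.343) and higher values in pericentral nuclei in 1 of 8 samples, against 8 of 8 in Liver and 7 of 8 in Cell Suspension. Against Cell Suspension 4 passed (6.97% of genes tested), namely Aldh3a2, Aldh1a1, Aldh2 and Rbp4 (-0.34 ± 0.10, edgeR adjusted p = 0.0128). That of Rbp4 was lost under 4 of 12 alternatives, without mouse 1, 2 or 3 and with zone lists without their most abundant gene (-0.25, edgeR adjusted p = 0.164). Rdh16 and Aldh1b1 did not pass against Cell Suspension, but did so under 3 and 1 of 12 alternatives. The change of Rdh16 against Liver was lost under 4 of 12, without mouse 3, 4 (-0.64) or 8 and with nuclei of at least 2000 UMIs (-0.93, edgeR adjusted p = 0.0562). The change of Adh1 against Liver was lost under 7 of 12, without mouse 1, 5, 6 or 7, with RLE factors (-0.39), with a split at the median (-0.29) and with the shorter zone lists (-0.30, edgeR adjusted p = 0.325). Adh4 did not pass against Liver (0.09 ± 0.19), but with nuclei of at least 2000 UMIs it did, in the other direction (-0.64, edgeR adjusted p = 0.00685).

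The ranking was much coarser in culture. After each nucleus was thinned to 1000 UMIs, the nuclei that kept any UMI of the 20 zonation genes were scored. These held a median of 5 such UMIs in Liver, against 6.5 in Cell Suspension and 1 in Primary Hepatocytes. There 42.6% of the nuclei had any such UMI, against 98.6% in Liver, and between 47.3% and 57.0% of those shared the score at a cut. In 7 of the 8 Primary Hepatocytes samples both cuts fell on the same score, and nuclei with that score were put at random into the lower, middle or upper tertile, so the cultured pericentral and periportal groups hold nuclei that the score does not separate. In Liver and Cell Suspension this was so in 0 samples. The pericentral list itself had a median log2 difference of 4.27 in Liver and 2.14 in Primary Hepatocytes, and the periportal list -3.78 and -1.11. A weaker contrast in Primary Hepatocytes and a coarser ranking of their nuclei cannot be told apart.

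**Figure D5:**
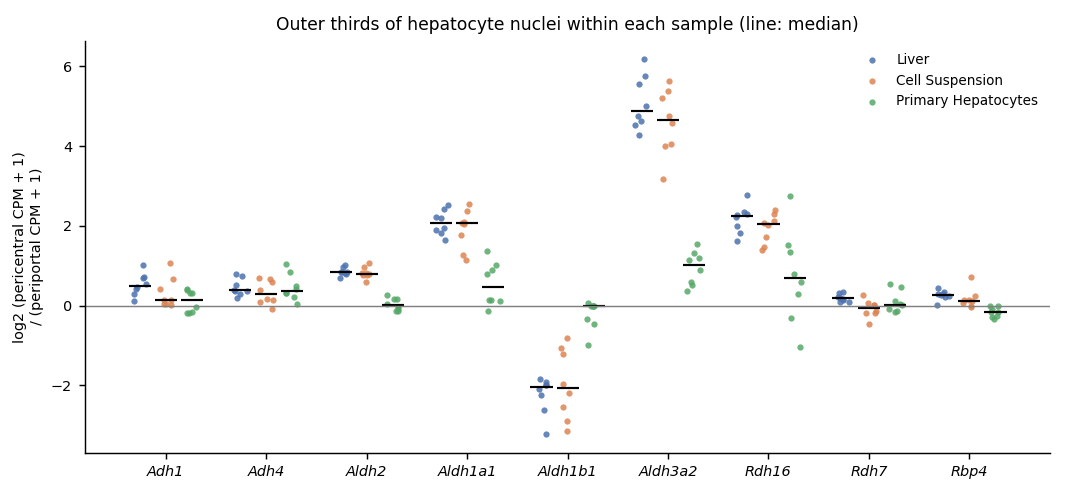
Log2 ratio of the level in pericentral to that in periportal hepatocyte nuclei for each sample, computed as CPM + 1 in both, with a line at the median. Aldh3a2, Rdh16 and Aldh1a1 lie above 1 in all Liver samples, Aldh1b1 lies below -1 in all of them, and the medians of Primary Hepatocytes are closer to 0 for the first 3. For Aldh1b1 the cultured levels are below 1 CPM, so that the added 1 holds its ratio near 0. Its change against Liver was not called, but it was under 2 of 12 alternatives.

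The share of spliced UMIs was taken among spliced and unspliced UMIs, with ambiguous ones left out. In hepatocyte nuclei of Liver it differed widely between the members, from 2.36% ± 0.485 (SD, n = 8) for Rdh16 to 45.8% ± 5.31 for Rdh7 and 69.8% ± 8.48 for Aldh1b1. Rdh16 had 342 spliced, 13988 unspliced and 3383 ambiguous UMIs there, so its low share depends on leaving the ambiguous ones out. Over all genes Liver had 19.5% ± 1.74 of UMIs spliced, Cell Suspension 27.2% ± 3.02 and Primary Hepatocytes 29.1% ± 1.58. In Primary Hepatocytes the ratio of spliced to unspliced UMIs, relative to all genes, differed from Liver for 5 of the 9 (17.7% of the genes tested, either direction). It was higher for Adh1 (0.91 ± 0.16), Aldh2 (0.86 ± 0.14), Rdh7 (0.82 ± 0.15) and Rbp4 (0.38 ± 0.14), and lower for Aldh1a1 (-1.08 ± 0.15, edgeR adjusted p = 6.44e-10). The spliced share of Adh1 was 17.1% ± 3.26 in Liver and 36.8% ± 8.31 in Primary Hepatocytes, and that of Rdh7 was 45.8% and 69.3% ± 7.59. For Aldh1a1 the share went the other way, from 11.8% ± 3.0 in Liver and 16.7% ± 2.62 in Cell Suspension to 8.76% ± 1.89 in Primary Hepatocytes. Rbp4 only just passed (edgeR adjusted p = 0.0472) and lost the call with RLE factors and without mouse 1 or mouse 8. The cultured values of Adh1 and Rdh7 are again at or below those of endothelial nuclei.

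Against Cell Suspension 6 genes differed (14.8% of the genes tested). Aldh1a1 (-1.11 ± 0.15) and Aldh3a2 (-0.72 ± 0.19) had lower ratios in Primary Hepatocytes, and Rdh7 (0.89 ± 0.16), Aldh2 (0.56 ± 0.14), Adh1 (0.48 ± 0.16) and Rbp4 (0.39 ± 0.14) higher ones. The call of Rbp4 was lost when mouse 1, 2, 4, 5, 6 or 8 was left out, that of Adh1 without mouse 4, 5 or 6, and those of Adh1 and Aldh3a2 when ambiguous UMIs were added to the spliced ones. Between Liver and Cell Suspension 3 genes differed (13.2% of the genes tested), all with higher ratios in Cell Suspension: Aldh3a2 (0.77 ± 0.17, edgeR adjusted p = 2.93e-04), Adh4 (0.66 ± 0.15, edgeR adjusted p = 6.79e-04) and Adh1 (0.44 ± 0.15, edgeR adjusted p = 0.0343). The spliced share of Adh4 was 6.56% ± 0.837 in Liver and 14.2% ± 3.09 in Cell Suspension. With RLE factors the share of calls with a higher ratio was 41.8% in place of 64.0% here, and 49.6% in place of 38.7% between Cell Suspension and Primary Hepatocytes. The call of Adh1 was lost without mouse 5 and with RLE factors, and that of Aldh3a2 when ambiguous UMIs were added to the spliced ones (0.22, edgeR adjusted p = 0.359).

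Counted per nucleus, after thinning to 1000 UMIs, 17.9% ± 4.76 (SD, n = 8) of hepatocyte nuclei of Liver had a UMI of Adh1, 19.4% ± 6.68 of those of Cell Suspension and 2.55% ± 0.851 of those of Primary Hepatocytes. In endothelial nuclei the share was 4.20% ± 1.66, 4.22% ± 3.72 and 4.19% ± 3.71, so the cultured hepatocyte share was at or under that background. Rbp4 was found in 42.8% ± 4.13, 37.2% ± 4.77 and 20.7% ± 2.24 of hepatocyte nuclei, and in 10.9% ± 3.28, 11.3% ± 4.35 and 10.9% ± 6.35 of endothelial nuclei. Aldh1a1 was found in 17.7% ± 4.28, 13.2% ± 2.78 and 7.65% ± 1.73 of hepatocyte nuclei, compared with 5.16% ± 2.51, 3.45% ± 3.05 and 4.44% ± 2.33 of endothelial nuclei. Without thinning, the hepatocyte shares were 64.4%, 52.0% and 12.4% for Adh1, 89.2%, 75.04% and 65.3% for Rbp4 and 57.6%, 36.6% and 24.2% for Aldh1a1. All these shares, thinned or not, leave out nuclei of under 1000 UMIs. That kept 96.1%, 93.0% and 98.2% of hepatocyte nuclei of Liver, Cell Suspension and Primary Hepatocytes, but 93.5%, 68.7% and 73.4% of endothelial nuclei. With all nuclei counted, the median depth was 6860.5, 3025 and 5915.5 UMIs in hepatocyte nuclei and 2861.5, 1662 and 1499 UMIs in endothelial nuclei.

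A further 63 genes of the pathway, in 5 lists also chosen with earlier results of these data known, give the setting. Compared with Liver, 30 of them (47.6%) were lower and 11 (17.5%) higher in Primary Hepatocytes, where 26.3% of all genes tested were lower and 27.4% higher, and the median log2 change was -0.50 beside 0.10 over all genes tested. Against Cell Suspension 31 (49.2%) were lower and 12 (19.05%) higher, beside 23.5% and 26.9% of all genes. Cell Suspension compared with Liver gave 8 lower and 8 higher (12.7% each), near the 14.2% and 8.15% of all genes. Of the 5 other alcohol dehydrogenases, 4 (80.0%) were lower in culture than in Liver. Adh7, the class IV enzyme next to Adh1, had means of 122 ± 30.7 CPM in Liver, against 30.1 ± 9.72 in Cell Suspension and 4.71 ± 1.13 in Primary Hepatocytes (SD, n = 8). It changed by -2.01 ± 0.18 already between Liver and Cell Suspension (edgeR adjusted p = 1.21e-09), and by -4.68 ± 0.20 between Liver and Primary Hepatocytes. Adh5, the glutathione-dependent formaldehyde dehydrogenase, was lower by a smaller amount (-1.86 ± 0.10).

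Of the 17 other aldehyde dehydrogenases, 10 (58.8%) were lower and 4 (23.5%) higher than in Liver. Aldh8a1 (-5.38 ± 0.19) and Aldh1l1, a folate enzyme of the cytosol (-4.27 ± 0.13), fell most. Aldh1l2, its mitochondrial counterpart, rose by 3.91 ± 0.23, from 0.772 ± 0.240 CPM in Liver to 11.1 ± 3.45 CPM in Primary Hepatocytes (edgeR adjusted p = 3.82e-15).

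Of the 16 other retinol and short-chain dehydrogenases, 8 (50.0%) were lower and 3 (18.75%) higher than in Liver. Rdh16f2 (-5.48 ± 0.26) and Rdh9 (-4.60 ± 0.38), of the cluster of Rdh16 and Rdh7, also fell. Dhrs3, which reduces retinal back to retinol, fell by 2.62 ± 0.17. Dhrs9, another short-chain retinol dehydrogenase, rose from 17.3 ± 11.8 to 85.9 ± 35.6 CPM (2.29 ± 0.38, edgeR adjusted p = 4.54e-06). Rdh11, a retinal reductase, rose as well (0.70 ± 0.19, edgeR adjusted p = 0.00199), but not with the pool as a covariate (0.29, edgeR adjusted p = 0.325).

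Of the 21 genes for retinoid storage, carriers and receptors, 5 (23.8%) were lower and 4 (19.05%) higher than in Liver, shares near or under those of all genes, with a median change of 0.11. Against Cell Suspension 9 (42.9%) fell and 4 (19.05%) rose in culture (median -0.37), and 6 (28.6%) were higher and 1 (4.76%) lower in Cell Suspension than in Liver, with a median of 0.30. Ttr, the plasma partner of Rbp4, fell by 3.30 ± 0.22, from 1070 ± 317 to 108 ± 29.4 CPM. The carotenoid oxygenases moved apart, with Bco2 at -3.83 ± 0.23 and Bco1, which cleaves beta-carotene to retinal, at 2.04 ± 0.17. The retinoic acid receptor gene Rarb, itself induced by retinoic acid, rose from 37.2 ± 12.6 to 72.9 ± 9.78 CPM (0.97 ± 0.19, edgeR adjusted p = 6.47e-05), a call that was lost with spliced UMIs alone (0.70, edgeR adjusted p = 0.106). Cyp26a1, which degrades retinoic acid, had 3.83 ± 4.38 CPM in Liver, 16.8 ± 11.1 CPM in Cell Suspension and 4.01 ± 1.56 CPM in Primary Hepatocytes. It was higher in Cell Suspension than in Liver (2.16 ± 0.44, edgeR adjusted p = 4.42e-04) and lower in Primary Hepatocytes than in Cell Suspension (-2.09 ± 0.43, edgeR adjusted p = 1.37e-04). Lrat, which esterifies retinol, was below 1 CPM in hepatocyte nuclei. Of the 4 other enzymes of ethanol and acetate, 3 were lower than in Liver, among them Cyp2e1, the microsomal ethanol oxidase (-5.24 ± 0.21), and Acss2, which makes acetyl-CoA from acetate (-3.68 ± 0.17).

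The genes whose levels over the 24 samples were most like those of a member were found by Pearson's r of log2(CPM + 1) in hepatocyte nuclei, among 4670 genes of at least 50 CPM in a sample type. For Adh1 they were Gm16559, which overlaps it on the other strand (r = 0.997), Ghr (0.984) and Acaa2 (0.983). For Rdh16 they were Ugt3a2 (0.995), Gm32624 (0.993) and Serpinc1 (0.993), for Rdh7 Amacr (0.992), Hebp1 (0.990) and Bbox1 (0.990), and for Adh4 B630019A10Rik (0.994) and Sirt3 (0.991). Aldh2 was most like Wipf3 (0.993), Ttc38 (0.990) and F5 (0.990), and Rbp4 was most like Chn2 (0.991), F5 (0.990) and Jade1 (0.989). Aldh3a2 was most like Tbx3 (0.982), a gene of the pericentral list. The most similar genes were less alike for Aldh1a1, namely Cdyl2 (0.938), Slc16a12 (0.936) and Fam20c (0.934), and for Aldh1b1, namely Sult1a1 (0.922), Hpd (0.921) and Sbk1 (0.920). These values describe points that fall into 3 sample types and share library depth, so a gene that differs between cultured and other samples has a high r with many others.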

How the data were processed

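Single-nucleus RNA sequencing was analysed for 24 samples of 8 mice. The authors made 3′ libraries of 6 pools of 4 hashtagged samples, used bcl2fastq 2.19.0 and then quantified spliced and unspliced GRCm38 transcripts by Salmon Alevin and Alevin-fry, assigned nuclei to samples with mclust, removed doublets with scDblFinder and clustered nuclei in Seurat. What was deposited are raw UMI counts for each gene, nucleus and splicing state. The authors' table of nuclei gives counts and labels, of which the labels were used, for all its nuclei. A hashtag labelled CD2 was read as Cell Suspension of mouse 2. Cultured clusters were read as endothelial or stellate where most of those markers were at least 4-fold up, otherwise as hepatocytes.

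UMIs were summed per sample and cell type. The test, for genes with at least 10 counts, was that of edgeR 4.0.16 under R 4.3.3 (TMM factors, quasi-likelihood fit, 1 coefficient per sample type, Benjamini-Hochberg adjustment over all genes tested, threshold 0.05), with limma 3.58.1 loaded beside it. Comparisons of cell types or zones within a sample, and of splicing states, had the sample as a block. The alternatives were RLE size factors, DESeq2 1.42.0, other filters, splicing states, depths and nuclei, the pool as a covariate, the mouse as a block and each mouse left out. Library totals without TMM, the low-UMI cultured cluster left out, and tests between cell types in Cell Suspension and Primary Hepatocytes were added after seeing the data. Tests were checked on simulated data. Python 3.11.15 was used for the remaining steps. A shared mouse number marks a shared animal, as the paper describes. Deviations from the group means over 4670 genes correlated with a median of 0.743 (0.402 to 0.889) for Liver and Cell Suspension of the same mouse and -0.106 for different mice. For Primary Hepatocytes with Liver the medians were 0.0433 for the same mouse and -0.00109 for different mice. With Cell Suspension they were 0.00861 and 0.00888, so the shared mouse did not show there.

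The members and the gene lists were chosen with earlier results of these data known. Named pathway genes are, per list, the 2 largest called rises and the 2 largest falls between Liver and Primary Hepatocytes among genes of at least 10 CPM, plus Cyp26a1, Dhrs3, Rarb, Lrat, Ttr and Cyp2e1.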

Additional observations from a re-analysis of the deposited data

Results flagged for a closer look

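In hepatocyte nuclei of Cell Suspension, Rdh7 of mouse 6 stood at 96.6 CPM, far under the other 7 samples of that sample type. This was found by comparing the extreme sample's gap with the range of its group in 27 groups of 8 samples, and chance gives about 1 such sample in 20 groups.

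The difference between pericentral and periportal nuclei was not the same in all sample types for several genes, by the test of the change itself. Against Liver, the log2 difference changed in Primary Hepatocytes by -4.25 for Aldh3a2, -1.54 for Aldh1a1, -1.04 for Rdh16, -0.84 for Aldh2, -0.43 for Adh1 and -0.43 for Rbp4. Against Cell Suspension it changed by -3.87 for Aldh3a2, -1.37 for Aldh1a1, -0.79 for Aldh2 and -0.34 for Rbp4. For Rbp4 it went from 0.26 in Liver and 0.17 in Cell Suspension to -0.17 in Primary Hepatocytes, a change of sign whose cultured value was not called. The calls of Rbp4 against Cell Suspension and of Rdh16 against Liver were each lost under 4 of 12 alternatives, and that of Adh1 against Liver under 7 of 12. Beside these values stands the median of 1 zonation UMI per thinned cultured nucleus, taken among the nuclei that had any. Its part in them was not tested.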

How the results depend on the processing

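The counts of members called lower in Primary Hepatocytes did not move with any alternative by over 1.5 times in hepatocyte nuclei. Of 237 counts under an alternative, 228 were within 1.5 times the count reported and 9 were not. In hepatocyte nuclei the count of members called in Cell Suspension against Liver went from 4, all lower, to 2 with spliced UMIs alone, of which 1 was lower (Rdh7) and 1 higher (Adh1), and to 2 with the Rdh family summed, a fit in which 2 members are a single value. In endothelial nuclei the count between Liver and Primary Hepatocytes went from 3 to 1 with RLE size factors, to 1 with DESeq2 and to 1 with the filter of edgeR, and that between Cell Suspension and Primary Hepatocytes from 2 to between 1 and 3 with each mouse left out in turn. Among single genes, 3186 of 3345 values were counted as unchanged, where a change of sign in a value called in neither fit was not counted. A turned direction was counted for 5, of which 4 had been called and 1 (Adh4, below) was called only under the alternative. With spliced UMIs alone these were Rarb in Primary Hepatocytes against Cell Suspension (-0.074) and, in Cell Suspension against Liver, Adh4 (0.039), Aldh1l2 (-1.59) and Acss2 (0.32). With nuclei of at least 2000 UMIs the change of the zonation of Adh4 between Liver and Primary Hepatocytes, 0.09 and not called otherwise, was -0.64 (edgeR adjusted p = 0.00685). The cause was not tested. With the mouse as a replicate block, 5 members were called between Liver and Cell Suspension and 3 in endothelial nuclei between Cell Suspension and Primary Hepatocytes. Of the genes named, the block changed the calls of Aldh1a1, of Adh1 in endothelial nuclei and of Bco1 between Liver and Cell Suspension (0.47, edgeR adjusted p = 0.0673), and no other. Over all genes, the count of calls between Liver and Cell Suspension went from 5983 to 3288 after thinning to the shallowest sample, in endothelial nuclei that between Liver and Primary Hepatocytes from 6181 to 3818 with the filter of edgeR and that between Liver and Cell Suspension from 712 to 432 without mouse 1 and 469 without mouse 3, and the zonation calls of Primary Hepatocytes from 487 to 264 with all ranked nuclei split at the median and 267 without the most abundant gene of each list. RLE factors moved the median log2 value of all genes from -0.11 to -0.25 for the splicing ratio between Liver and Cell Suspension, from -0.014 to 0.13 in endothelial nuclei between Liver and Primary Hepatocytes, and from 0.33 to -0.0043 between hepatocyte and stellate, 0.20 to -0.01 between hepatocyte and endothelial and 0.21 to 0.05 between hepatocyte and Kupffer nuclei of Liver. Depth limits Aldh1b1 and the cultured levels of Rdh16 and Adh4, which rest on few UMIs.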
